A study of Mus musculus with 8 samples.

Results

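The liver makes most of the complement and coagulation proteins of the blood, and 45 genes that encode them were examined here in liver RNA of mice infused with 4-HPAA or with normal saline. The genes were taken from a list of names, and the estimated counts of all transcripts of each gene were added up. All 45 were found among the 35975 genes of the deposited data and all 45 passed the filter on low counts, as members of 12883 genes that did. The mice were of the C57BL/6 strain (C57BL/6J in the study's methods), and each carried an osmotic pump whose catheter led into the portal vein for 2 weeks. In 4 mice the pump held normal saline, and in 4 mice it held 4-HPAA (4-hydroxyphenylacetic acid, a phenolic acid made by gut bacteria) at 55 mM in normal saline, and both ran at 0.25 µL per hour. The portal vein carries blood from the gut to the liver, so the compound reached the liver first. Both groups had the same surgery, and no mouse without a pump was sequenced. The mice were 8 to 10 weeks old, male and female, and were housed singly after surgery. Age and sex come from the methods for all mice of the study, since the sample labels state neither. The labels number the 4 replicates of each group without naming an animal, and if any did not come from separate mice, the p-values here measure technical spread in part.

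Complement is a set of plasma proteins that mark and lyse microbes. The classical and lectin pathways start when C1 or mannose-binding lectins meet their ligands, the alternative pathway amplifies the signal, and all lead to cleavage of C3 and to assembly of a pore by the terminal components. Coagulation is a similar cascade of proteases in which thrombin turns fibrinogen into fibrin, while serpins and protein C restrain it and plasmin dissolves the clot. Hepatocytes secrete most of these proteins, several of them depend on vitamin K for a carboxylation step, and fibrinogen and C3 are known as acute phase proteins, which rise in inflammation.

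The total estimated count per mouse lay between 29559978 and 30673398, and the 45 genes held between 3.95% and 4.44% of it. The lowest count of any of them in any mouse was 2009, so that counting error was small beside the differences between mice. Levels of a gene in each mouse are given in CPM, counts scaled to the size of the library after TMM normalization, and levels of different genes are compared in TPM, which also divides by transcript length. The 8 hepatocyte markers examined summed to between 112115 and 136501 CPM with normal saline and to between 106462 and 136233 CPM with 4-HPAA, with Alb, the gene for albumin, the most abundant gene by TPM. In whole tissue, fewer cells of a type and less RNA per cell cannot be told apart.

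The most abundant of the 45 genes per length were Fga at 2656 ± 291 TPM in the normal saline group and 2613 ± 288 TPM in the 4-HPAA group (SD, n = 4 each) and Fgg at 2375 ± 207 TPM and 2311 ± 164 TPM, which encode the fibrinogen chains Aα and γ. Next came Serpinc1, the gene for antithrombin, at 2417 ± 218 and 2223 ± 123 TPM, and C3, the component on which the complement pathways converge, at 2302 ± 70.2 and 2240 ± 150 TPM (SD, n = 4 per group). In both groups the ranges of ± 1 SD of these 4 genes overlapped. Their order depended on the transcript lengths used: with 200 bases taken off each length, Serpinc1 (1732 TPM over the 8 mice) came above Fga (1706 TPM) and Fgg (1555 TPM), and with the most abundant transcript of each gene alone Serpinc1 was at 1292 TPM, below 8 of the other genes. In all, 9 of the 45 exceeded 1000 TPM by full annotated lengths, and 6 did with the shortened lengths, at which all 45 levels were lower. By full lengths these 9 ranked among the 100 most abundant genes of the liver. Another 32 lay between 100 and 1000 TPM, and the lowest were Pros1, the gene for protein S, at 39.1 ± 3.69 and 36.7 ± 1.69 TPM, Masp1 at 55.4 ± 4.86 and 56.5 ± 6.68 TPM, F11 at 70.0 ± 2.98 and 69.7 ± 7.55 TPM and F7 at 99.7 ± 11.2 and 93.8 ± 4.77 TPM (SD, n = 4 per group).

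**Figure D1:**
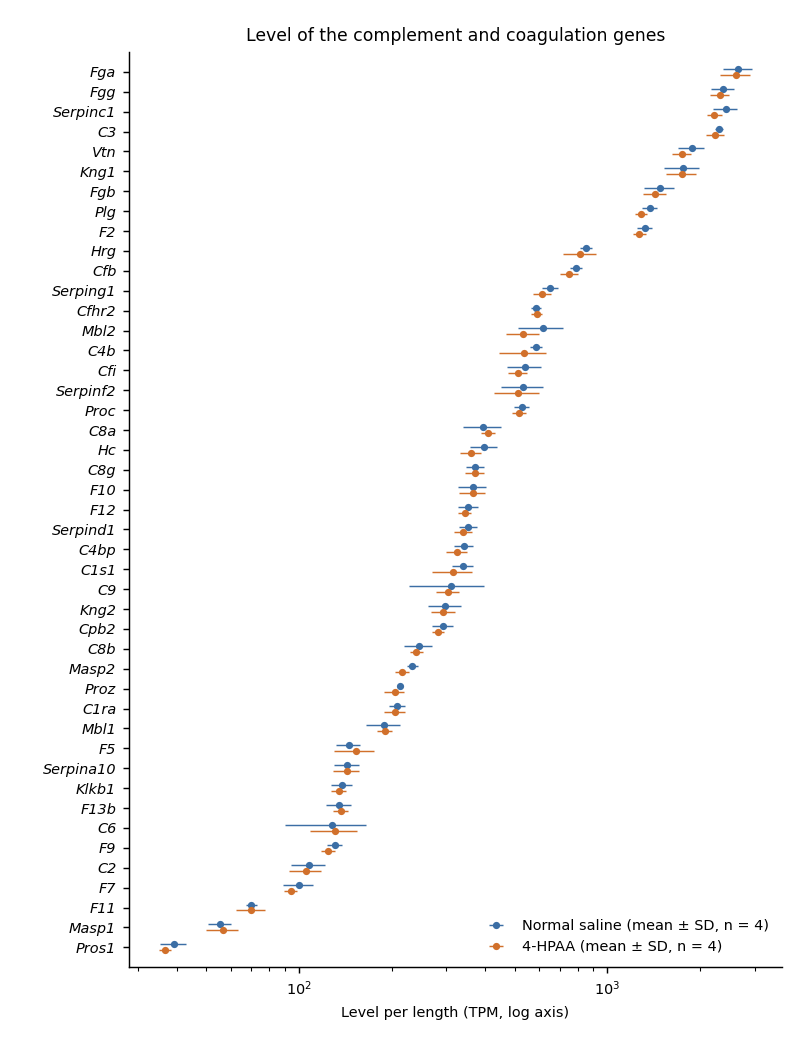
Level of each of the 45 genes in TPM on a log axis, ordered by the mean of all 8 mice, with points for the group mean and lines for ± 1 SD (n = 4 mice per group). The levels run from 36.7 TPM for Pros1 with 4-HPAA to 2656 TPM for Fga with normal saline, and for every gene the lines of the groups overlap.

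The comparison of 4-HPAA with normal saline asked whether the infused metabolite altered transcripts of these genes. By edgeR's quasi-likelihood test, adjusted after Benjamini and Hochberg over 12883 genes, 0 of the 45 genes passed the threshold of 0.05, where the share over all genes tested was 0%. Masp2 had the smallest unadjusted p of the 45, 0.195, and after adjustment p was 1.00 for every gene (edgeR). Thus 0 of 45 had an unadjusted p under 0.05 by edgeR, against 1.75% of all genes tested, and likewise 0 by DESeq2 (against 1.68%) and 0 by limma-voom (against 1.63%). In 0 of 45 were the mice of the groups fully apart, against 1.2% of all genes tested. The log2 fold changes of 4-HPAA over normal saline ran from -0.19 for Mbl2 to 0.09 for F5, with a median of -0.03, and over all genes tested the median was 0.0007. Of the 45 genes, 12 were above 0 and 33 below, where 50.4% of all genes tested were above 0. This split depended on single mice: without Normal Saline replicate 4 there were 24 genes above 0 (49.3% of all genes tested) and without 4-HPAA replicate 3 there were 23 (50.8%). The sign of the fold change turned in 28 genes when some mouse was left out and held in 17, among them Mbl2, Masp2, C4bp, Pros1, Serpinc1, Plg, Hc and F5. In 40 of the 45 genes the log2 fold change was smaller than its standard error. The 95% interval of the fold change lay within a 1.5-fold change in either direction for all 45, which held for 75.4% of all genes tested.

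**Figure D2:**
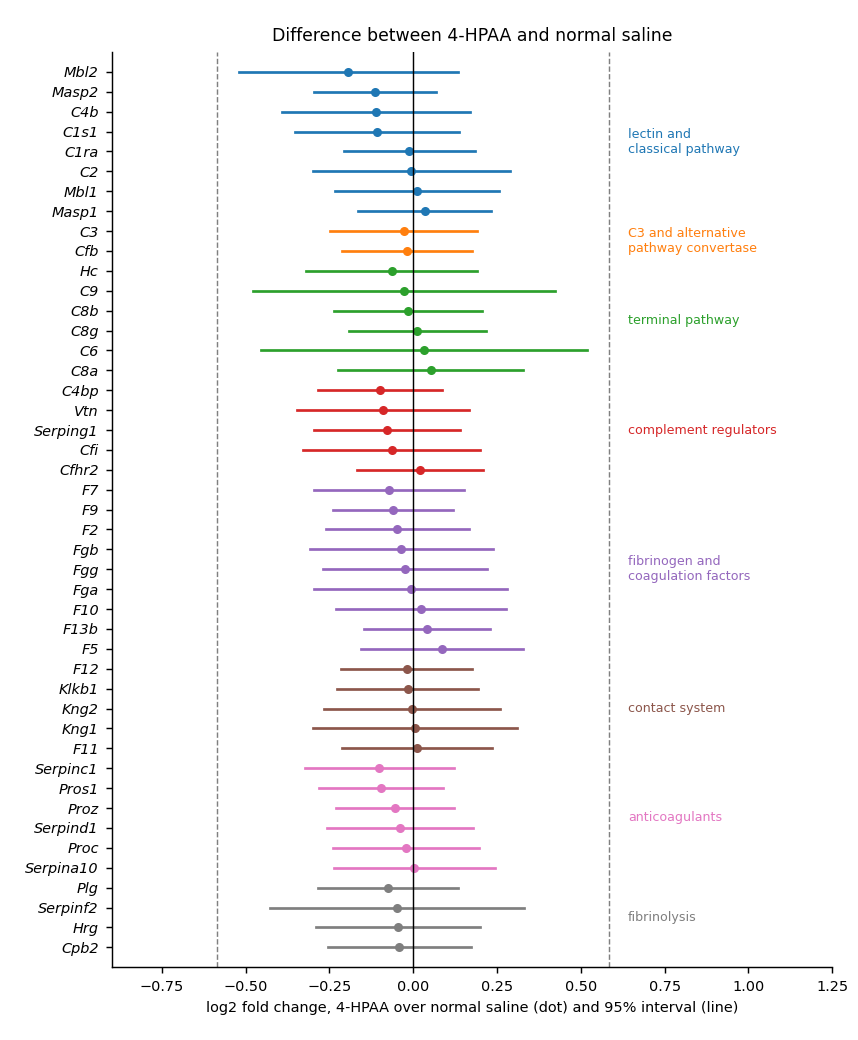
Log2 fold change of 4-HPAA over normal saline for each gene (dot) with its 95% interval (line) from edgeR's quasi-likelihood fit of 8 mice, grouped and coloured by role. All 45 intervals include 0 and stay inside the dashed lines, which mark a 1.5-fold change (0.585 on the log2 scale) either way.

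Fibrinogen is built from the products of Fga, Fgb and Fgg, and together with F13b, F2, F5, F7, F9 and F10 these genes form a group of 9 of which 0 were called, 3 had a fold change above 0 and 6 below (median log2 fold change -0.02). Fga was at 3580, 3515, 2853 and 3631 CPM in the 4 mice with normal saline and at 3940, 3427, 2849 and 3294 CPM in the 4 mice with 4-HPAA. The groups overlapped from end to end, with the third mouse lowest in each, and the log2 fold change was -0.0073 (standard error 0.13, 95% interval -0.30 to 0.28). Fgb, which encodes the Bβ chain, was at 3627, 3449, 2901 and 3740 CPM and at 3752, 3363, 2866 and 3399 CPM. Fgg was at 2525, 2439, 2196 and 2711 CPM and at 2779, 2322, 2204 and 2398 CPM, with log2 fold changes of -0.04 (standard error 0.12) for Fgb and -0.02 (standard error 0.11) for Fgg. The 3 genes thus had the same order of mice at both ends, with Normal Saline replicate 3 and 4-HPAA replicate 3 lowest, and Normal Saline replicate 4 and 4-HPAA replicate 1 highest in each group.

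The fibrinogen genes are neighbours on chromosome 3 of GRCm38, Fgg from 83007724 to 83015049 and Fga from 83026076 to 83033627 on the plus strand and Fgb from 83040141 to 83049863 on the minus strand, and Gm30097 overlaps Fgg on the opposite strand. Their levels moved together between the 8 mice. Pearson's r of log2 CPM was 0.97 for Fga and Fgb (Spearman's rho 0.98), 0.92 for Fga and Fgg (rho 0.95) and 0.93 for Fgb and Fgg (rho 0.98). The exact permutation p over 40320 orderings, two-sided and adjusted over 12 relations by Benjamini-Hochberg, was 0.00208, 0.00707 and 0.00707 for r and 0.00159, 0.00342 and 0.00159 for rho. Without Normal Saline replicate 3 and 4-HPAA replicate 3, which lay farthest from the median, r was 0.85, 0.87 and 0.97 (n = 6). With the group means taken out, r was 0.98, 0.92 and 0.93 over the 8 mice. The chains were measured in the same libraries, so anything that shifts a library as a whole enters both sides of each relation. The permutations treat the 8 libraries as exchangeable. After subtraction of group means, libraries of the same replicate number correlated across genes at a mean of 0.239, against -0.0783 for other pairs between the groups. No correlation was computed with the replicate number taken out, so the permutation p-values do not allow for such a link. No pair of the 45 genes on different chromosomes was tested for correlation. Kng1 on chromosome 16, Serpinf2 on chromosome 11 and Plg on chromosome 17 had the same highest and lowest mice in each group as the fibrinogen genes. F2 on chromosome 2 shared these mice in the normal saline group only. Moving together is thus not shown to be particular to the fibrinogen cluster. Per length, Fga lay at 1.80 ± 0.0389 times Fgb after normal saline and at 1.83 ± 0.0632 times Fgb with 4-HPAA, and Fgg at 1.61 ± 0.0591 and 1.63 ± 0.0789 times Fgb (SD, n = 4 per group), so that the proportions of the chains differed by less than the spread between mice.

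The sequence before each fibrinogen gene is shown, from the RefSeq promoter table of GRCm38.p6, on the strand of the gene and 5′ to 3′. Capitals mark matches on either strand to TTCNNNGAA, the palindromic motif of STAT factors, TTGCNNAA, a C/EBP motif, and GTTAAT, part of the HNF1 motif, which reads ATTAAC on the other strand. Fga is shown for chr3:83025903-83026075, plus strand, Fgb for chr3:83049864-83050113, minus strand, and Fgg for chr3:83007474-83007723, plus strand.
Fga promoter: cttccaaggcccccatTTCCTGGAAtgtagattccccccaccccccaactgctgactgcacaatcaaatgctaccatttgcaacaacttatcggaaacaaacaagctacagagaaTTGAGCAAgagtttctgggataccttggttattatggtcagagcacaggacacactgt
Fgb promoter: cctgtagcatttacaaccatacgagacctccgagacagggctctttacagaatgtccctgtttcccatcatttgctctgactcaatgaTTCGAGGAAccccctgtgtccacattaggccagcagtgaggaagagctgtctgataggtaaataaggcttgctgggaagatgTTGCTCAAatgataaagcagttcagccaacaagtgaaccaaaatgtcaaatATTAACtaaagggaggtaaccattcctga
Fgg promoter: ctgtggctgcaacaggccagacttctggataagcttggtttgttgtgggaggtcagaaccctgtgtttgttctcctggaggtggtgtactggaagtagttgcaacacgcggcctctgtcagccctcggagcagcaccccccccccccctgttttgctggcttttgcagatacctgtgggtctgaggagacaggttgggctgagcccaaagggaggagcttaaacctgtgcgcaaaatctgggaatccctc
The window of 250 bases before the RefSeq start of Fga reaches 77 bases into the transcript as GENCODE annotates it, and these bases are not printed. They hold a match to the HNF1 motif from 43 to 38 bases before the RefSeq start. The windows of Fga and Fgb each held 1 match to each of these motifs in the same order, at 234 to 226 and 162 to 154 bases before the start for STAT, 135 to 128 and 80 to 73 for C/EBP, and 43 to 38 and 29 to 24 for HNF1. The Fgg window held 0 matches. These are matches of letters and say nothing of binding, and their part in the joint movement of the chains was not tested.

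A promoter was listed for 35 of the 45 genes. GTTAAT was found in 11 of these 35 windows (31.4%), in C1ra, C4bp, C8a, C8b, Cfhr2, F13b, Fga, Fgb, Hc, Proz and Vtn, while 7.49% of 27025 genes held it in a window of the same length. TTGCNNAA was found in 10 (28.6%, against 10.8% of all genes) and TTCNNNGAA in 6 (17.1%, against 8.13%). CAAAGTCCA, a form of the HNF4A motif, was found in 0 of 35, and in 0.451% of all genes. Some genes held several of the motifs, and the shares are descriptions with no test.

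The transcripts deposited by the authors also show which forms of fibrinogen were expressed. Fgg-201, with a coding sequence for 436 residues, held 82.2 ± 0.422% of the Fgg reads after normal saline and 82.2 ± 0.925% after 4-HPAA, and Fgg-202, with 443 residues, held 17.8 ± 0.422% and 17.8 ± 0.925% (SD, n = 4 per group). The longer form corresponds to the γ′ chain, which arises when the last intron is kept in part and which is known to bind thrombin. The coding sequences part at base 1298, counted from the first base of the start codon. Their ends are shown 5′ to 3′ up to the stop codon, with 30 shared bases in lower case and the bases that differ in capitals (GENCODE M21, chromosome 3, plus strand).
Fgg-201 coding end: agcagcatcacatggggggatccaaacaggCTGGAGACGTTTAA
Fgg-202 coding end: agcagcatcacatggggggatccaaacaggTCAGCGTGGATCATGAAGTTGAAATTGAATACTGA
The longer end was used in 16.6% to 18.8% of the counts in each of the 8 mice. Of Fga, the form of 557 residues (Fga-201) held 97.2 ± 0.553% and 96.8 ± 0.860%, and the form of 789 residues, known as αE, held the remaining 2.81 ± 0.553% and 3.17 ± 0.860% (SD, n = 4 per group). The shares come from kallisto's division of reads among transcripts that have most of their sequence in common.

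F5 encodes factor V, the cofactor of activated factor X, and had the smallest p of the group. It was at 639, 664, 723 and 594 CPM with normal saline and at 690, 806, 687 and 599 CPM with 4-HPAA. 4-HPAA replicate 2 was the highest of all 8, the other 7 mice overlapped, and the log2 fold change was 0.09 (standard error 0.11, edgeR adjusted p = 1.00). F2, the gene for prothrombin, was the most abundant protease gene of the cascade at 1324 ± 75.3 and 1269 ± 60.6 TPM (SD, n = 4 per group), with a log2 fold change of -0.05 (standard error 0.10). The log2 fold changes of F7 (-0.07), F9 (-0.06) and F10 (0.02), which encode vitamin K-dependent proteases, and of F13b (0.04), which encodes the carrier subunit of the fibrin-crosslinking factor XIII, were each smaller than the standard error, between 0.08 and 0.11. F7, F10 and Proz follow each other on chromosome 8. F7 and F10 had r = 0.78 (adjusted exact permutation p = 0.0646, n = 8) and r = 0.53 without the 2 mice farthest from the median, while F10 and Proz had r = 0.04 (adjusted exact permutation p = 0.916, n = 8).

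The contact system consists of factors XI and XII, prekallikrein and the kininogens, from which bradykinin is released. Of its 5 genes 0 were called, 2 had a fold change above 0 and 3 below (median -0.0034). F12 had the smallest p, 0.834. It was at 430, 421, 373 and 439 CPM with normal saline and at 437, 369, 415 and 421 CPM with 4-HPAA. Each group had 1 mouse near 370 and the rest above 410, and the log2 fold change was -0.02 (standard error 0.09). Kng1, the most abundant of the 5, was at 2217, 2141, 1815 and 2509 CPM and at 2487, 1973, 1845 and 2408 CPM. Its mice spread equally in both groups, with a log2 fold change of 0.0051 (standard error 0.14). F11 (0.01), Klkb1 (-0.02), which encodes prekallikrein, and Kng2 (-0.0034) had fold changes smaller than their standard errors, between 0.09 and 0.12. Kng2, the paralog of Kng1 at 28383 bases from it on chromosome 16, varied with it between mice, with r = 0.95 and rho = 0.98 (adjusted exact permutation p = 0.00372 and 0.00159, n = 8) and r = 0.96 without the 2 mice farthest from the median (n = 6). Kng1 and Kng2 are similar in sequence, so reads could be divided between them. Kng1 and Hrg on the same chromosome had r = 0.61 (adjusted exact permutation p = 0.184, n = 8).

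Kng1 is expressed in forms that differ in the light chain. Kng1-202, of 432 residues and known as low molecular weight kininogen, held 74.9 ± 2.95% of the counts with normal saline and 75.6 ± 1.55% with 4-HPAA. Kng1-201, of 661 residues and known as high molecular weight kininogen, which carries prekallikrein and factor XI, held 18.3 ± 2.39% and 18.2 ± 1.66%. A form of 480 residues, Kng1-203, held 6.74 ± 0.792% and 6.19 ± 0.194% (SD, n = 4 per group). For each form the ranges of the groups overlapped.

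**Figure D3:**
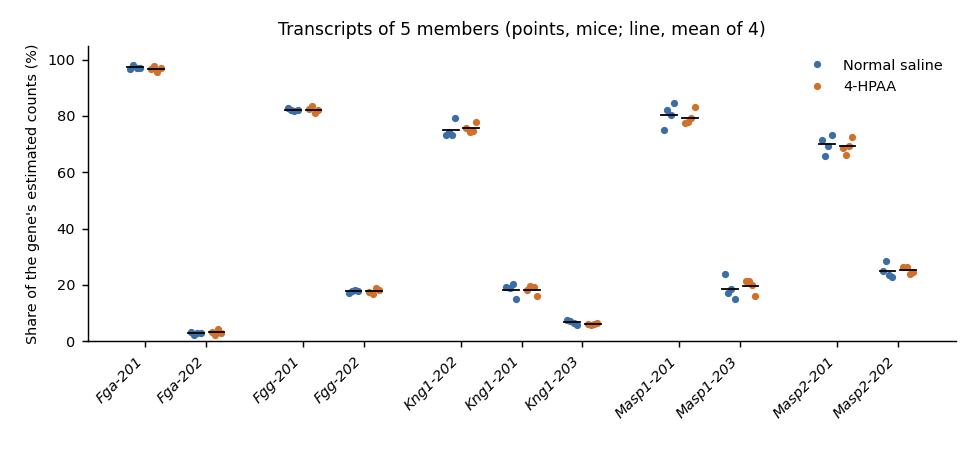
Share of each gene's estimated counts held by its main annotated transcripts, in percent, for Fga, Fgg, Kng1, Masp1 and Masp2 (points, single mice; black lines, means of 4 mice). In both groups the main form of Fga holds about 97% and that of Fgg about 82%, and for every transcript the points of the groups overlap.

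Among the 6 anticoagulant genes 0 were called, 1 had a fold change above 0 and 5 below (median -0.05). Pros1, whose product is the cofactor of activated protein C, had the smallest p of the group. It was at 71.9, 72.1, 76.4 and 89.1 CPM with normal saline and at 70.1, 74.5, 70.6 and 74.5 CPM with 4-HPAA. Normal Saline replicate 4 stood above the rest, which overlapped, and the log2 fold change was -0.10 (standard error 0.08, edgeR adjusted p = 1.00). Serpinc1 was at 1806, 1666, 1598 and 1891 CPM and at 1755, 1479, 1547 and 1711 CPM. The 2 lowest mice had 4-HPAA and the 2 highest had normal saline, with a log2 fold change of -0.10 (standard error 0.10, 95% interval -0.32 to 0.12). Of its counts 49.2% and 49.2% were placed on Serpinc1-205 and 22.9% and 22.6% on Serpinc1-204, both partial transcripts shorter than the full-length Serpinc1-201, so its level in TPM depends on these annotations. Proc, the gene for protein C (-0.02), Proz, for protein Z (-0.05), Serpina10, for the inhibitor that protein Z assists (0.0028), and Serpind1, for heparin cofactor II (-0.04), had fold changes smaller than their standard errors, between 0.08 and 0.11. Without 4-HPAA replicate 1, Proz was the single one of the 45 genes whose groups were apart, at 409 to 429 CPM with normal saline against 374 to 394 CPM, where 4.04% of all genes tested were apart without that mouse. With it, at 445 CPM, Proz overlapped.

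Among the 4 genes of fibrinolysis 0 were called and all 4 had a fold change below 0 (median -0.05). Plg, the gene for plasminogen, had the smallest p and the highest level of the group, at 2351, 2293, 2161 and 2413 CPM with normal saline and 2420, 2095, 2047 and 2190 CPM with 4-HPAA. The highest mouse and the 2 lowest had 4-HPAA, and the log2 fold change was -0.07 (standard error 0.09, edgeR adjusted p = 1.00). Serpinf2, which encodes the plasmin inhibitor α-antiplasmin, was among the most variable of the 45 genes. It was at 627, 679, 509 and 794 CPM with normal saline and at 739, 624, 460 and 699 CPM with 4-HPAA, a log2 fold change of -0.05 (standard error 0.17). Its lowest mice were the third of each group. Cpb2, for the fibrinolysis inhibitor carboxypeptidase B (-0.04, standard error 0.10), and Hrg, for histidine-rich glycoprotein (-0.05, standard error 0.11), differed less.

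Taking the 7 genes of vitamin K-dependent proteins across these groups, F2, F7, F9, F10, Proc, Pros1 and Proz, 1 had a fold change above 0 and 6 below, with a median of -0.05, and 0 were called.

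The lectin and classical pathways of complement had 8 genes, of which 0 were called, 2 had a fold change above 0 and 6 below (median -0.06). Masp2 encodes the protease that cleaves C4 and C2 in the lectin pathway, and had the smallest p of all 45 genes. It was at 216, 230, 229 and 257 CPM with normal saline and at 232, 210, 202 and 218 CPM with 4-HPAA. The 2 lowest mice had 4-HPAA and the highest had normal saline, but 4-HPAA replicate 1 lay above 3 of the 4 mice with normal saline. The log2 fold change was -0.11 (standard error 0.08, 95% interval -0.30 to 0.07, edgeR adjusted p = 1.00). Mbl2, which encodes a mannose-binding lectin, had the largest fold change and the highest level per length of the group. It was at 399, 403, 329 and 507 CPM and at 373, 296, 343 and 421 CPM. Normal Saline replicate 4 was highest and 4-HPAA replicate 2 lowest, and the spread within each group exceeded the log2 fold change of -0.19 (standard error 0.15, edgeR adjusted p = 1.00). The other lectin, Mbl1, had a log2 fold change of 0.01 (standard error 0.11). Mbl2 lay at 3.35 ± 0.979 times Mbl1 per length in the normal saline group and at 2.84 ± 0.496 times in the 4-HPAA group (SD, n = 4 each), with Normal Saline replicate 4 highest at 4.71. That mouse was the highest of its group for Mbl2 and the lowest for Mbl1.

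C4b (-0.11, standard error 0.13) and C2 (-0.0054, standard error 0.13) encode the substrates that form the C3 convertase of these pathways, and C1ra (-0.01, standard error 0.09) and C1s1 (-0.11, standard error 0.11) the proteases of C1. Reads of C4b, C1ra and C1s1 could be shared with the near copies C4a, C1rb and C1s2. Those of C2 and of Cfb could be shared with Gm20547, which overlaps both on the same strand. C1ra lay at 0.612 ± 0.0202 and 0.652 ± 0.0485 times C1s1 per length (SD, n = 4 per group). Masp1 (0.03, standard error 0.09) is overlapped on the opposite strand by Rtp4, and Masp2 by Tardbp. Genes on the opposite strand also overlap C2 (Zbtb12), C8g (Fbxw5), Serpinc1 (Zbtb37), Serpind1 (Pi4ka) and Plg (Slc22a3), among others. The libraries were directional, but the study's methods give kallisto's standard settings, which do not use strand, so reads of overlapping genes on opposite strands cannot be told apart.

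Both MASP genes also yield products that differ from the full protease. Masp1-201, of 704 residues, which corresponds to MASP-1, held 80.5 ± 4.03% of the counts with normal saline and 79.4 ± 2.69% with 4-HPAA, and Masp1-203, of 733 residues, which corresponds to MASP-3, the activator of pro-factor D, held 18.7 ± 3.76% and 19.7 ± 2.51% (SD, n = 4 per group). Masp2-201, of 685 residues, held 70.0 ± 3.27% and 69.2 ± 2.67% (SD, n = 4 per group), and Masp2-202, of 185 residues, which corresponds to MAp19 and lacks the protease domain, held 22.9% to 28.4% over the 8 mice. In each case the ranges of the groups overlapped.

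C3 and Cfb, the gene for factor B, make up the alternative pathway convertase. C3 was at 7181, 7072, 7190 and 7315 CPM with normal saline and at 7489, 7135, 7064 and 6518 CPM with 4-HPAA. The mice with normal saline lay close together inside the range of those with 4-HPAA, and the log2 fold change was -0.03 (standard error 0.10, edgeR adjusted p = 1.00). Cfb changed by -0.02 (standard error 0.09). Its main transcript, Cfb-201, held 56.2 ± 4.36% of its counts in the normal saline group and 60.2 ± 3.67% in the 4-HPAA group (SD, n = 4 each), and on that transcript alone the log2 fold change was 0.07 rather than -0.02. C2 and Cfb lie 86 bases apart on chromosome 17 and had r = 0.18 between mice (adjusted exact permutation p = 0.758, n = 8).

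The terminal pathway had 6 genes, Hc, C6, C8a, C8b, C8g and C9, of which 0 were called and 3 had a fold change above 0 and 3 below (median -0.0019). Hc, the mouse gene for C5, was at 905, 1158, 1153 and 1142 CPM with normal saline and at 1076, 1170, 994 and 926 CPM with 4-HPAA. Normal Saline replicate 1 was the lowest of all 8 mice and the others of its group lay within a narrow band, with a log2 fold change of -0.06 (standard error 0.11, edgeR adjusted p = 1.00). C8a, the most abundant of the group per length by full annotated lengths but below C8g with 200 bases taken off each (251 against 269 TPM), was at 644, 956, 872 and 928 CPM and at 915, 889, 872 and 848 CPM. Here too Normal Saline replicate 1 was far below the other 7 mice, and the log2 fold change was 0.05 (standard error 0.12), or -0.06 without that mouse. C6 was at 131, 283, 258 and 207 CPM and at 189, 231, 202 and 276 CPM, and C9, whose product polymerises into the pore, was at 235, 382, 386 and 509 CPM and at 403, 321, 340 and 420 CPM. Their highest mouse was 2.16 and 2.17 times the lowest, the largest ratios among the 45 genes, and their log2 fold changes were 0.03 (standard error 0.22) and -0.03 (standard error 0.20).

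Normal Saline replicate 1 was the lowest of its group in 5 of the 6 terminal genes, all but C8g, and the lowest of the 8 mice in each of those 5. It was also lowest of its group in 4 of the 5 complement regulators, 3 of the 8 lectin and classical genes and 3 of the 6 anticoagulant genes. Of the 9 fibrinogen and coagulation factor genes it was lowest in 1. Its summed level of the 8 hepatocyte markers, 123267 CPM, was the second highest of its group, and its summed level of 20 acute phase genes, 13357 CPM, lay within the range of its group, 12983 to 15816 CPM. In its group this mouse was highest in summed markers of stellate cells (208 CPM), cholangiocytes (45.5 CPM) and endothelial cells (149 CPM). Its cholangiocyte sum was also the highest of all 8 mice. Mice with 4-HPAA were higher in stellate cell markers (replicates 2 and 3, 213 and 217 CPM) and endothelial markers (replicate 2, 167 CPM). The part of these cells in the low terminal genes was not tested, nor that of sex, which the labels do not state. C8a and C8b, neighbours on chromosome 4, had r = 0.85 between mice (adjusted exact permutation p = 0.0991, n = 8), which became 0.12 without Normal Saline replicate 1 alone and -0.23 without Normal Saline replicates 1 and 2, so the relation rested on Normal Saline replicate 1. C8b had a log2 fold change of -0.02 (standard error 0.10) and C8g, on another chromosome, one of 0.01 (standard error 0.09).

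**Figure D4:**
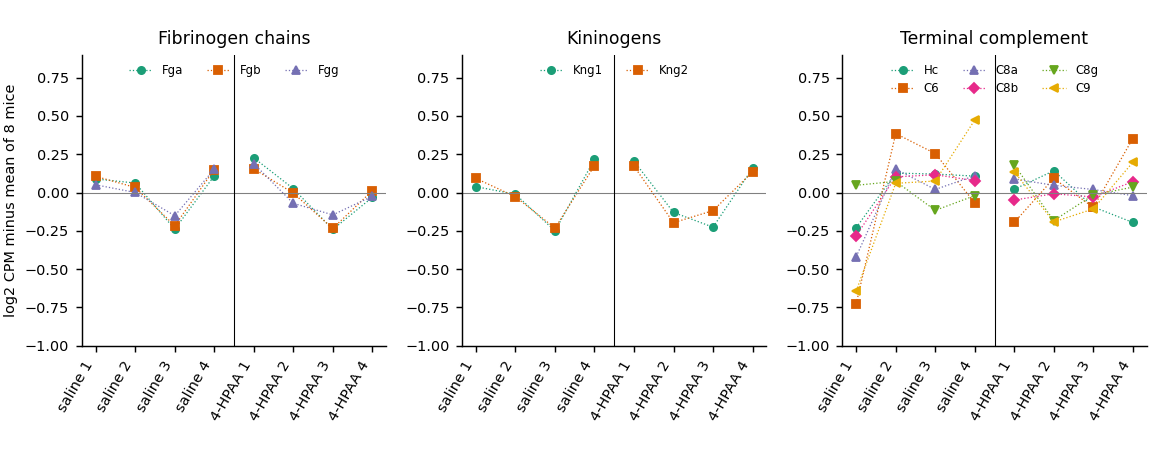
Log2 CPM of each gene minus its mean over the 8 mice, for the fibrinogen chains, the kininogens and the terminal complement genes, in each mouse (dotted lines only join the points of one gene). The 3 fibrinogen genes and the 2 kininogen genes follow each other from mouse to mouse, while 5 of the 6 terminal genes share a low value in Normal Saline replicate 1. That mouse was also lowest of its group in 4 of the 5 complement regulators, which are not drawn here.

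Of the 5 complement regulators 0 were called, 1 had a fold change above 0 and 4 below (median -0.08). C4bp, whose product binds C4b and speeds the decay of the convertase, was at 460, 560, 541 and 532 CPM with normal saline and at 490, 495, 485 and 485 CPM with 4-HPAA. The mice with 4-HPAA lay in a narrow band inside the range of the others, between Normal Saline replicate 1 and the rest. The log2 fold change was -0.10 (standard error 0.08, edgeR adjusted p = 1.00). Without Normal Saline replicate 1 the groups were apart for C4bp and for C8b, 2 of the 45 genes, where 3.39% of all genes tested were apart without that mouse. Vtn, the gene for vitronectin, which blocks the terminal complex, was the most abundant regulator, at 2004, 2026, 1711 and 2189 CPM and at 2041, 1633, 1757 and 2022 CPM. Each group had lower and higher mice over the same range, with a log2 fold change of -0.09 (standard error 0.11). Serping1, for the C1 inhibitor (-0.08, standard error 0.10), Cfi, for factor I (-0.06, standard error 0.12), and Cfhr2 (0.02, standard error 0.08), differed by less than their standard errors. Cfhr2 belongs to a gene family whose members could share reads.

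The median absolute log2 fold change between the groups was 0.04 over the 45 genes, and single mice differed by more. Within groups the median SD of log2 CPM was 0.140 over the 45 genes and 0.180 over all genes tested, without matching for level. Above the latter lay 8 of the 45, C6, C9, Serpinf2, Mbl2, C2, Kng1, C8a and C4b. The highest of the 8 mice was less than 1.5 times the lowest in 41 of the 45 genes. The exceptions were Mbl2 (1.72), C6 (2.16), C9 (2.17) and Serpinf2 (1.73). Of the 45 genes, 31 were highest within the 4-HPAA group in replicate 1 and 29 were highest within the normal saline group in replicate 4, while normal saline replicate 1 and 4-HPAA replicate 3 were highest in 0 genes and lowest in 18 each. Normal saline replicate 3 was lowest in 19 genes, among them all 3 fibrinogen genes, both kininogen genes, F2, F7, F10, F12 and Plg. The summed level of the 45 genes ranged from 40283 to 45637 CPM with normal saline and from 38841 to 45955 CPM with 4-HPAA.

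**Figure D5:**
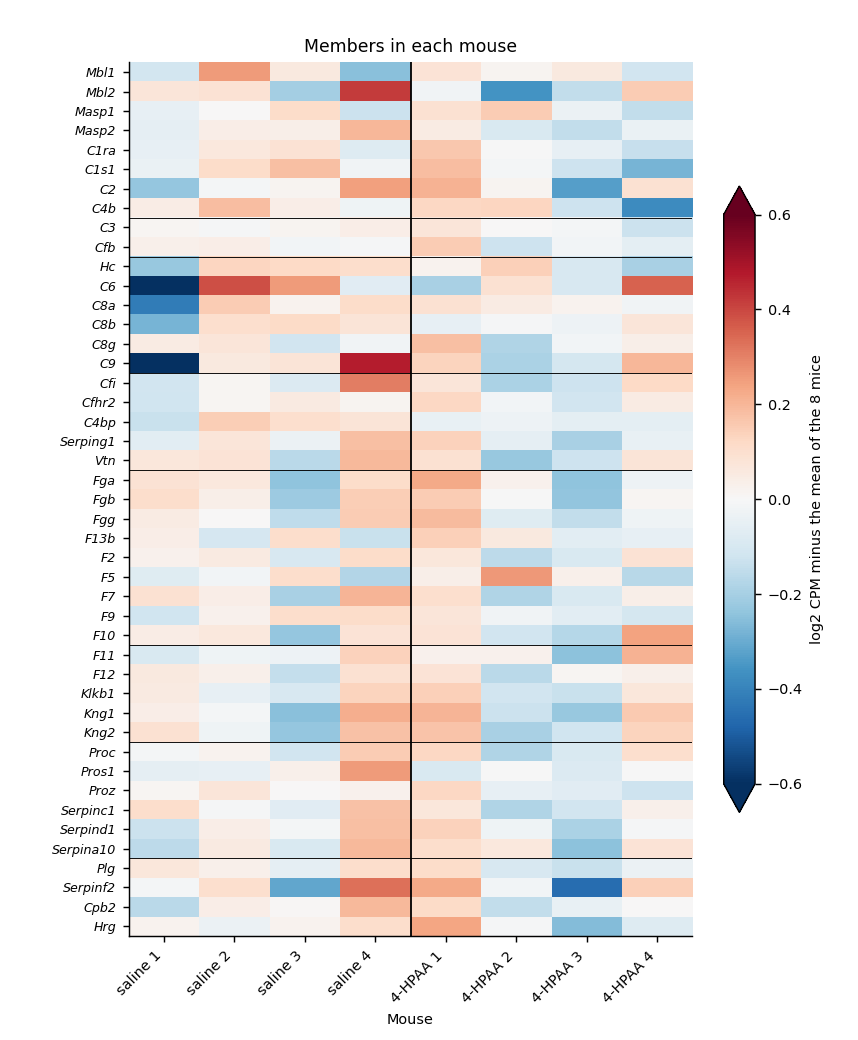
Log2 CPM of each gene minus its mean over the 8 mice, by mouse (columns) and role (blocks separated by lines), with red above and blue below the mean and the scale ending at 0.6 either way. The columns of 4-HPAA replicate 1 and Normal Saline replicate 4 are mostly red and that of 4-HPAA replicate 3 mostly blue, and the dark cells of Normal Saline replicate 1 are C6 and C9.

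Other genes of these systems were compared as well. Of 30 further complement genes, 21 were tested and 0 were called, 13 above 0 and 8 below. Cd46, a membrane regulator that in mice is expressed mainly in the testis, had the smallest p of these. It was at 5.58, 5.32, 5.28 and 6.01 CPM with normal saline and at 4.57, 4.20, 4.50 and 4.69 CPM with 4-HPAA. The groups were apart, but the log2 fold change of -0.30 (standard error 0.11) did not pass the threshold (edgeR adjusted p = 1.00). Cd46 was the 1 gene of the 21 with groups apart, against 1.2% of all genes tested. It was also the 1 with an unadjusted edgeR p under 0.05, against 1.75%. The receptor genes C5ar2 (0.49, standard error 0.29) and C3ar1 (-0.39, standard error 0.35) followed. Of 29 further genes of coagulation and fibrinolysis, 18 were tested and 0 were called, 12 above 0 and 6 below. Those with the smallest p were F2r, for a thrombin receptor (0.39, standard error 0.23), Thbd, for thrombomodulin (0.32, standard error 0.22), and Plau, for urokinase (0.40, standard error 0.33).

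Since fibrinogen and C3 are acute phase proteins, 20 other acute phase genes were examined. All 20 were tested, 0 were called by edgeR, and 5 were above 0 and 15 below (median -0.09). Of the 20, 2 had an unadjusted p under 0.05, Fgl1 and Apcs, against 1.75% of all genes tested. Fgl1, a fibrinogen-like protein of the liver, was at 426, 526, 401 and 465 CPM with normal saline and at 420, 346, 335 and 285 CPM with 4-HPAA. Only 4-HPAA replicate 1 overlapped with the mice given normal saline, and the log2 fold change of -0.39 (standard error 0.13) did not pass the threshold (edgeR adjusted p = 1.00). Apcs, for serum amyloid P, had a log2 fold change of -0.44 (standard error 0.17, edgeR adjusted p = 1.00). Lcn2, for lipocalin, had one of -0.76 (standard error 0.44), and Normal Saline replicate 1 was its highest mouse, at 17.6 CPM against 4.43 to 5.21 CPM in the rest of its group. Between mice Fgb had r = 0.40 with Saa1, 0.28 with Hp and 0.16 with Orm1 (adjusted exact permutation p = 0.487, 0.718 and 0.758, n = 8). With Saa1 r was 0.06 without 4-HPAA replicate 3 and 0.83 without Normal Saline replicate 3.

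Markers of other cells of the liver were measured beside these results. The 7 Kupffer cell markers summed to 85.9 to 284 CPM with normal saline and to 77.0 to 234 CPM with 4-HPAA, the 6 endothelial markers to 102 to 149 and 101 to 167 CPM, and the 6 stellate cell markers to 113 to 208 and 123 to 217 CPM. The 5 cholangiocyte markers summed to 23.4 to 45.5 and 23.9 to 37.9 CPM. The 5 platelet markers summed to 3.31 to 4.19 and 3.40 to 4.71 CPM and the 5 neutrophil markers to 0.737 to 1.68 and 0.712 to 1.20 CPM, with Gp1bb and Ly6g, defining markers of these cells, at 0 in most libraries. The 5 red blood cell markers summed to 247 to 2560 CPM with normal saline and to 152 to 734 CPM with 4-HPAA, highest in Normal Saline replicate 2 and 4-HPAA replicate 4, and all 5 were below 0 (median -1.89). The 6 endothelial and the 6 stellate cell markers were all above 0 (medians 0.06 and 0.25), and 0 genes of any of these lists were called (edgeR's quasi-likelihood test). Without the mice highest in red blood cell markers, 0 of the 45 complement and coagulation genes were called, 12 were above 0 (48% of all genes tested) and the median log2 fold change was -0.05. The part of the cell composition in the differences between mice was not tested.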

How the data were processed

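Liver RNA of 4 mice with normal saline and 4 mice with 4-HPAA was sequenced from directional mRNA libraries as paired reads of 100 bp. The authors checked the reads with FastQC 0.11.9, per the submitters' processing notes, and pseudo-aligned them with kallisto to transcripts of GRCm38.p6. The study's methods also name a concatenation of flow cells. The deposited values are estimated counts per Ensembl transcript and mouse, not normalized and not pooled over mice. Of values above 0, 9.36% were whole. Columns were matched to samples by name, and 0 were left over. The columns hold no comparison made by the authors.

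Estimated counts were summed per gene with GENCODE M21 and rounded. Of 119414 transcripts, 116728 matched 35975 genes, and the 2686 left out held 0.703% to 1.06% of a library. A gene was tested where each library held 10 or more counts. The test was the quasi-likelihood F test of edgeR 4.0.16 (R 4.3.3) after TMM normalization, and p-values were adjusted after Benjamini and Hochberg, with 0.05 as threshold. The standard error is the absolute log2 fold change over the square root of F, and intervals are 95%. TPM was computed from annotated lengths. Correlations used log2 CPM with a prior count of 2. Depth was alike in all libraries, and a gene's precision is set by the spread between 4 mice. On simulated counts of 12883 genes, 12651 were tested, among them 95 of 100 genes changed 2-fold. Of these 95, edgeR found 72. Of 100 genes changed 4-fold, counted whether tested or not, it found 96, and it made 12 false calls. The simulated counts were drawn independently for each gene and library, with no differences between mice shared by genes, so these shares may not carry over to the real data.

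Other settings tried were limma-voom (limma 3.58.1), DESeq2 1.42.0, library totals, RLE normalization, looser filters, leaving out each library, the replicate number as a block, the most abundant transcript of each gene, TPM with 200 bases taken off each length (at least 1 base kept) and, chosen after seeing the data, the same without transcripts of 200 bases or less and removal of both libraries highest in globin. The 45 genes and all lists were chosen with earlier results of these data known. Values in every mouse are given for the gene of smallest p and the gene of highest TPM in each role, and other genes so described, chosen after their values were seen, are Fgb, Fgg, C6, C9 and Serpinf2. Of other lists the 3 genes of smallest p are named. Promoters came from RefSeq (GRCm38.p6), and 10 of the 45 genes had no entry.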

Additional observations from a re-analysis of the deposited data

Results flagged for a closer look

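In 108 groups of 4 mice, one for each of the genes named and each treatment, the distance of the most extreme mouse to its nearest neighbour was divided by the range over the 4. This share exceeded Dixon's 95% critical value of 0.829 in 6 groups, where chance gives about 1 in 20 groups, or 5.4 of 108, so the number of such groups is close to the number chance gives.

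Of the 6, 5 were among the 45 complement and coagulation genes, which also made up most of the 108 groups. Hc, the gene for C5, was at 905 CPM in Normal Saline replicate 1 against 1142 to 1158 CPM in the rest of its group (gap 0.938 of the range). C8b was at 272 CPM in the same mouse against 349 to 358 CPM (0.893). Fga was at 2853 CPM in Normal Saline replicate 3 against 3515 to 3631 CPM (0.851), and F10 at 353 CPM in that mouse against 427 to 438 CPM (0.871). Serpina10 was at 150 CPM in 4-HPAA replicate 3 against 185 to 191 CPM (0.861). Among the acute phase genes, Lcn2 was at 17.6 CPM in Normal Saline replicate 1 against 4.43 to 5.21 CPM (0.940).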

How the results depend on the processing

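In 17 other settings, 0 of the 45 genes were called in any (edgeR, DESeq2 or limma-voom as named), the smallest unadjusted p of any of them was 0.0733 and the smallest adjusted p was 0.999. The counts of further complement, coagulation and acute phase genes called were 0 in each of these settings. Over all genes tested DESeq2 called 2, and leaving out each library gave 0 to 1 with edgeR, the 1 being without 4-HPAA replicate 1. The number of the 45 genes whose groups were apart was 0 to 2 with each library left out (2 without Normal Saline replicate 1 and 1 without 4-HPAA replicate 1), and the number above 0 was 8 to 24. The median log2 fold change was -0.07 to 0.0055 with each library left out, being above 0 without Normal Saline replicate 4 or 4-HPAA replicate 3. The cause was not tested.

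Of 405 log2 fold changes of the 45 genes in settings that left out no single library, 18 turned in sign, in 13 genes, all of them small. C9 was at 0.0160 with limma-voom. With library totals Kng1 was at -0.0046 and Serpina10 at -0.0042. Kng2 was at 0.0016 with either other filter on low counts. With the most abundant transcript C2 was at 0.0364, Cfb at 0.0733, C8g at -0.0078 and Serpina10 at -0.0182. Without both libraries highest in globin C1ra was at 0.0413, C4b at 0.0193, Hc at 0.0094, Fga at 0.0120, F10 at -0.0450, F11 at -0.0778, Kng1 at -0.0626 and Serpina10 at -0.0168. For 28 genes the sign turned with some library left out. Their lowest and highest log2 fold changes were, for complement, -0.0678 and 0.0253 for C1ra, -0.0791 and 0.0925 for C2, -0.0136 and 0.0807 for Masp1 and -0.0639 and 0.1067 for Mbl1, -0.0550 and 0.0023 for C3 and -0.0720 and 0.0179 for Cfb, -0.1493 and 0.1790 for C6, -0.0607 and 0.1112 for C8a, -0.1019 and 0.0200 for C8b, -0.0447 and 0.0710 for C8g and -0.1985 and 0.1497 for C9, and -0.0161 and 0.0603 for Cfhr2 and -0.1217 and 0.0368 for Cfi. For coagulation they were -0.0656 and 0.0806 for F10, -0.0866 and 0.0661 for Fga, -0.1083 and 0.0314 for Fgb and -0.0929 and 0.0233 for Fgg, -0.0666 and 0.0885 for F11, -0.0676 and 0.0293 for F12, -0.0653 and 0.0247 for Klkb1, -0.0717 and 0.0820 for Kng1 and -0.0759 and 0.0583 for Kng2, -0.0656 and 0.0315 for Proc, -0.0479 and 0.0783 for Serpina10 and -0.0910 and 0.0159 for Serpind1, and -0.0989 and 0.0204 for Cpb2, -0.1375 and 0.0280 for Hrg and -0.1507 and 0.0758 for Serpinf2.

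The correlations of the fibrinogen genes with each other and of Kng1 with Kng2 passed in all 12 settings, with r from 0.88 to 0.98. F10 with Proz was at -0.2518 with library totals and at -0.1245 to 0.7147 with each library left out, C2 with Cfb at -0.2136 with library totals, -0.3893 with the most abundant transcript and -0.2556 to 0.2868 with each library left out, and Fgb with Orm1 at -0.0594 to 0.3936. F7 with F10 passed with RLE normalization (r = 0.7963) and without 4-HPAA replicate 4 (0.9167), and Fgb with Saa1 without Normal Saline replicate 3 (0.8279).

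C8a with C8b was at 0.1231 without Normal Saline replicate 1 and at 0.8202 to 0.9121 in the other settings. Fgb with Saa1 fell to 0.2109 without 4-HPAA replicate 1 and to 0.0568 without 4-HPAA replicate 3. Fgb with Hp was at 0.1675 with library totals, 0.1231 and 0.1244 without Normal Saline replicates 3 and 4, and 0.4948 and 0.4998 without 4-HPAA replicates 2 and 3.

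Levels per length depended on the lengths. With 200 bases taken off each, all 45 were lower, 6 rather than 9 exceeded 1000 TPM, Serpinc1 (1732) passed Fga (1706) and C8g (269) passed C8a (251), and without transcripts of 200 bases or less the count was again 6, with Serpinc1 at 1762 and Fga at 1736. With the most abundant transcript 9 exceeded 1000 TPM.

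The labels give both groups the replicate numbers 1 to 4, and nothing read here says that they pair mice. After subtraction of group means, libraries with the same number correlated at 0.0398, 0.168, 0.268 and 0.480 across genes (mean 0.239, against -0.0783 for the 12 other pairs of mice between the groups), and 4 of 8 libraries correlated best with their own number. In a fit with the replicate block, 0 of the 45 genes and 0 of all genes were called (edgeR), 336 genes had an unadjusted p under 0.05, 13 of the 45 genes were above 0, and the sign of C9 turned to 0.0127.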
